A study of Mus musculus with 33 samples.

Results

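The 6 intergenic regions described here are numbered genomic intervals in the kallisto tables of the CH12 RNA-seq libraries that lie outside every annotated gene and whose RNA was higher in lines lacking ZMYND8. They were picked by name from earlier results of these same libraries, on the difference between knockout (KO) and wild-type (WT) lines, so that difference is described below without a test. They are 6 of 49745 numbered regions, of which 18756 lie outside genes. Each carries the name of a nearby gene as a label only: region_4953 (Chst3), region_13693 (Tmem161b), region_10293 (Ahr), region_11002 (Zfp36l1), region_15750 (Pebp4) and region_8632 (Supt4a).

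Enhancers are stretches of DNA that raise transcription of genes at a distance, and active ones are themselves transcribed into mostly short-lived, unspliced enhancer RNA. ZMYND8 is a chromatin reader, a protein whose bromodomain and neighbouring domains recognise chemical marks on histones. In other cell types it is known to act with the demethylase KDM5C and with the NuRD complex to hold enhancers and promoters in check. In B cells, the best studied enhancers of this kind lie downstream of the immunoglobulin heavy chain genes and take part in antibody class switching.

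CH12 is a mouse B lymphoma line that can be induced to switch its antibody class in culture. The groups were the ZMYND8 KO lines KO2 and KO1, a WT clone and WT cells with no clone named (called parental WT below), each activated and unactivated, each cultured for 48 h and each with 3 libraries labelled as biological repeats. KO2, KO1 and the WT clone are 1 clone each, so a genotype rests on 2 lines. The labels name neither the activating stimulus nor how the gene was disrupted. The labels do not say whether the repeats were separate cultures, so the p-values below measure the spread between these libraries. Ribosome-depleted total RNA was sequenced to 28987854 to 34065813 estimated counts per library, of which the numbered regions held 3.78% to 5.48%. The 9 ChIP-seq and GRO-seq samples were not analysed here. Levels are CPM, estimated counts scaled to a common library total, given with the SD over n = 6 libraries per genotype and state unless stated.

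The summed regions inside Zmynd8 itself had 2.94 to 4.43 CPM in activated KO libraries and 2.05 to 3.39 CPM in activated WT libraries, and 1.56 to 2.58 CPM in unactivated KO libraries and 1.16 to 1.9 CPM in unactivated WT libraries. These values come from parts of the gene whose position relative to the disrupted part is not known, so they check nothing about the knockout. Of 8 B cell markers, 5 had regions, and their sum was 46.7 to 69.1 CPM in activated KO and 25.3 to 48.8 CPM in activated WT libraries, and 31.5 to 45.6 CPM in unactivated KO and 15.4 to 43.8 CPM in unactivated WT libraries. Of 4 tested, 2 rose in KO lines in both states, where 5.55% of 4520 gene values were called higher in activated and 4.16% in unactivated cells. Ebf1, a factor that sets up the B lineage, had 38.2 ± 6.65 CPM in activated KO and 21.9 ± 7.19 CPM in activated WT libraries, and Blk, a B cell kinase, had 4.54 ± 1.76 CPM in activated KO and 1.63 ± 0.804 CPM in activated WT libraries. Pax5, which defines the lineage, had 12.5 ± 1.73 CPM in activated KO and 12.5 ± 2.33 CPM in activated WT libraries. Of 6 T cell markers none had a region, 3 of 5 myeloid markers together had 0.439 to 1.21 CPM in KO and 0.298 to 1.28 CPM in WT libraries, and 2 of 4 fibroblast markers together had 0.0999 to 1.03 CPM in KO and 0.0345 to 1.74 CPM in WT libraries, with Col1a1 at 0 in every library. The part of these markers in the results below was not tested. In RNA from bulk cultures, more cells that carry an RNA and more RNA in each cell cannot be told apart.

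The 6 regions lie on 5 chromosomes (GRCm38, counted from 1). Region_4953 is chr10:60165989-60172001, 6013 bases long, between the long noncoding RNA gene Gm51802 (3.6 kb away) and Chst3 (9.5 kb). Region_13693 is chr13:84378370-84379704, 1335 bases long, in a sparse stretch 20.6 kb from the noncoding gene Gm41011 and 82.4 kb from Tmem161b. Region_10293 is chr12:35710711-35713178, 2468 bases long, 15.6 kb from the noncoding gene 9130015A21Rik and 175.7 kb from Ahr. Region_11002 is chr12:79999887-80008297, 8411 bases long, 10.1 kb from the noncoding gene Gm36660 and 99.5 kb from Zfp36l1, with Rad51b 151.6 kb away on the other side. Region_15750 is chr14:70065350-70069897, 4548 bases long, in the gap between Gm33524 (1.7 kb) and Pebp4 (5.4 kb) on one side and Egr3 (7.4 kb) on the other. Region_8632 is chr11:87744617-87753828, 9212 bases long, between Supt4a (1.0 kb) and the microRNA gene Mir142b (3.0 kb). Of these regions 4 were longer than 87.7% or more of the 2697 regions outside genes that passed the low-count filter, whose median length was 2170 bases.

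The sequences of the regions themselves are not used here. RefSeq (GRCm38.p6) gives promoters, 250 bases before to 50 bases after a gene's start, and 3 noncoding genes beside these regions start inside another measured region. The promoters of the 2 whose measured region was called higher in KO lines, as described further below, are shown. Capitals mark the only matches, on either strand, to the B cell octamer (ATGCAAAT) and to the ETS core (GAGGAAG). The octamer stands in 1.74% of all 32851 RefSeq promoters and the ETS core in 13.6%, and neither match shows that a factor binds there. The promoter not shown, that of Gm41011, has no match to either motif, and a link between motifs and calls was not tested. Of the other motifs searched, the E-box (CANNTG, in 72.3% of promoters) is not marked, has 2 matches in the first promoter and 3 in the second, and overlaps the octamer match by position in the first. AP-1 (TGANTCA, 7.81%), EBF (CCCNNGGG, 13.7%), IRF (GAAANNGAA, 8.56%), the xenobiotic response element (GCGTG, 32.4%) and NF-kB (GGANTTTCC, 1.25%) have no match in these windows. The Gm51802 promoter is chr10:60162342-60162641 on the minus strand, and that of 9130015A21Rik is chr12:35686255-35686554 on the minus strand, at a start inside the gene's annotated span.

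Gm51802 promoter: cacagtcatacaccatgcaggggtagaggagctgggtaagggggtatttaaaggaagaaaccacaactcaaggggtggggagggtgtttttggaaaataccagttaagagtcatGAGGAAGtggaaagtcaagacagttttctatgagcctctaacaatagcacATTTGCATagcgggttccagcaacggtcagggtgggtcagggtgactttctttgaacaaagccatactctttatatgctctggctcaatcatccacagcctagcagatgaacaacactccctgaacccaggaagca

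9130015A21Rik promoter: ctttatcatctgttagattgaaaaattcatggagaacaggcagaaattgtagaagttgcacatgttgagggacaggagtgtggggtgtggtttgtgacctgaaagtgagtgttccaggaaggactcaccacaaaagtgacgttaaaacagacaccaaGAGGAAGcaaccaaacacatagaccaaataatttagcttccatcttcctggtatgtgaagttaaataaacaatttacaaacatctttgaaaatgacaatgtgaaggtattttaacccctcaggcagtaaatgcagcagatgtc

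Beyond region_8632 lies the miR-142 hairpin, from which mature microRNAs abundant in blood cells are cut. Their RefSeq sequences are shown to place that region, with the seed, bases 2 to 8, in capitals. The arms differ in seed, and miR-142b is read from the opposite strand. Their own levels were not analysed here.

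mmu-miR-142a-5p: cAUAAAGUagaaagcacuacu

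mmu-miR-142a-3p: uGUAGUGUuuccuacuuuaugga

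mmu-miR-142b: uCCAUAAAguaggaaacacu

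In KO libraries every one of the 6 regions stood above every WT library in both states. All 6 of 6 were without overlap, where 6.45% of the 2697 regions outside genes had all KO libraries above all WT libraries in activated cells and 4.15% in unactivated cells. The regions were chosen for this difference, so nothing is read from the count.

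Region_4953 had the largest difference. In activated cells it ranged from 22.6 to 26 CPM in KO libraries (median 23.1) and from 1.01 to 1.85 CPM in WT libraries (median 1.67). In unactivated cells it ranged from 20.2 to 31.7 CPM in KO libraries (median 27.6) and from 1.5 to 2.4 CPM in WT libraries (median 1.7). The means were 23.6 ± 1.33 CPM in activated KO and 1.57 ± 0.298 CPM in activated WT libraries, a ratio of 15.1, and 26.5 ± 4.7 CPM in unactivated KO and 1.78 ± 0.354 CPM in unactivated WT libraries, a ratio of 14.8. Each KO line stood 12.5 to 17.2 times above each WT line, whichever lines were paired.

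Region_13693, the shortest, ranged from 3.4 to 6.35 CPM in activated KO libraries (median 4.15) and from 0.313 to 1.16 CPM in activated WT libraries (median 0.734). Unactivated, it ranged from 4.92 to 8.47 CPM in KO libraries (median 5.51) and from 0.583 to 1.72 CPM in WT libraries (median 0.898). The ratio of means was 6.17 in activated and 5.99 in unactivated cells. Here the WT lines differed most from each other: the ratio was 5.23 (KO1) and 3.8 (KO2) against the WT clone, and 11.2 (KO1) and 8.18 (KO2) against parental WT, in activated cells.

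Region_10293 ranged from 4.22 to 6.47 CPM in activated KO libraries (median 5.52) and from 0.919 to 1.21 CPM in activated WT libraries (median 1.05). Unactivated, it ranged from 2.58 to 4.02 CPM in KO libraries (median 2.85) and from 0.276 to 1.08 CPM in WT libraries (median 0.718). The ratio of means was 5.23 in activated and 4.3 in unactivated cells, and the lowest KO library stood 3.48 and 2.39 times above the highest WT library in these states.

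Region_11002 ranged from 3.95 to 10.2 CPM in activated KO libraries (median 6.76) and from 1.22 to 1.76 CPM in activated WT libraries (median 1.67). Unactivated, it ranged from 1.87 to 4.88 CPM in KO libraries (median 2.67) and from 0.35 to 1.26 CPM in WT libraries (median 0.657). The ratio of means was 4.43 in activated and 4.23 in unactivated cells. KO2 libraries were the high ones: they averaged 9.21 ± 1.15 CPM activated and 3.87 ± 0.992 CPM unactivated (SD, n = 3), against 4.95 ± 0.872 CPM activated and 2.2 ± 0.295 CPM unactivated in KO1.

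Region_15750 ranged from 5.31 to 11.5 CPM in activated KO libraries (median 8.37) and from 1.66 to 2.76 CPM in activated WT libraries (median 2.04). Unactivated, it ranged from 3.84 to 9.05 CPM in KO libraries (median 5.46) and from 1.03 to 2.92 CPM in WT libraries (median 1.95). The ratio of means was 3.95 in activated and 2.94 in unactivated cells. The unactivated gap was the narrowest of all, with the lowest KO library 1.32 times above the highest WT library.

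Region_8632, the longest and the one nearest to a gene, was also the most abundant in CPM among activated libraries. It ranged from 20.7 to 43.4 CPM in activated KO libraries (median 30.4) and from 6.56 to 11.5 CPM in activated WT libraries (median 7.57). Unactivated, it ranged from 15.4 to 28.7 CPM in KO libraries (median 17.3) and from 4.7 to 9.85 CPM in WT libraries (median 5.75). The ratio of means was 3.72 in activated and 3.03 in unactivated cells. Replicate 1 was the highest library in each of the 4 lines in both states, at 1.31 to 1.91 times the mean of the other 2 replicates. Within replicate 1 alone the KO to WT ratio was 3.82 activated and 3.03 unactivated, within replicate 2 it was 3.95 and 3.19, and within replicate 3 it was 3.35 and 2.88.

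**Figure D1:**
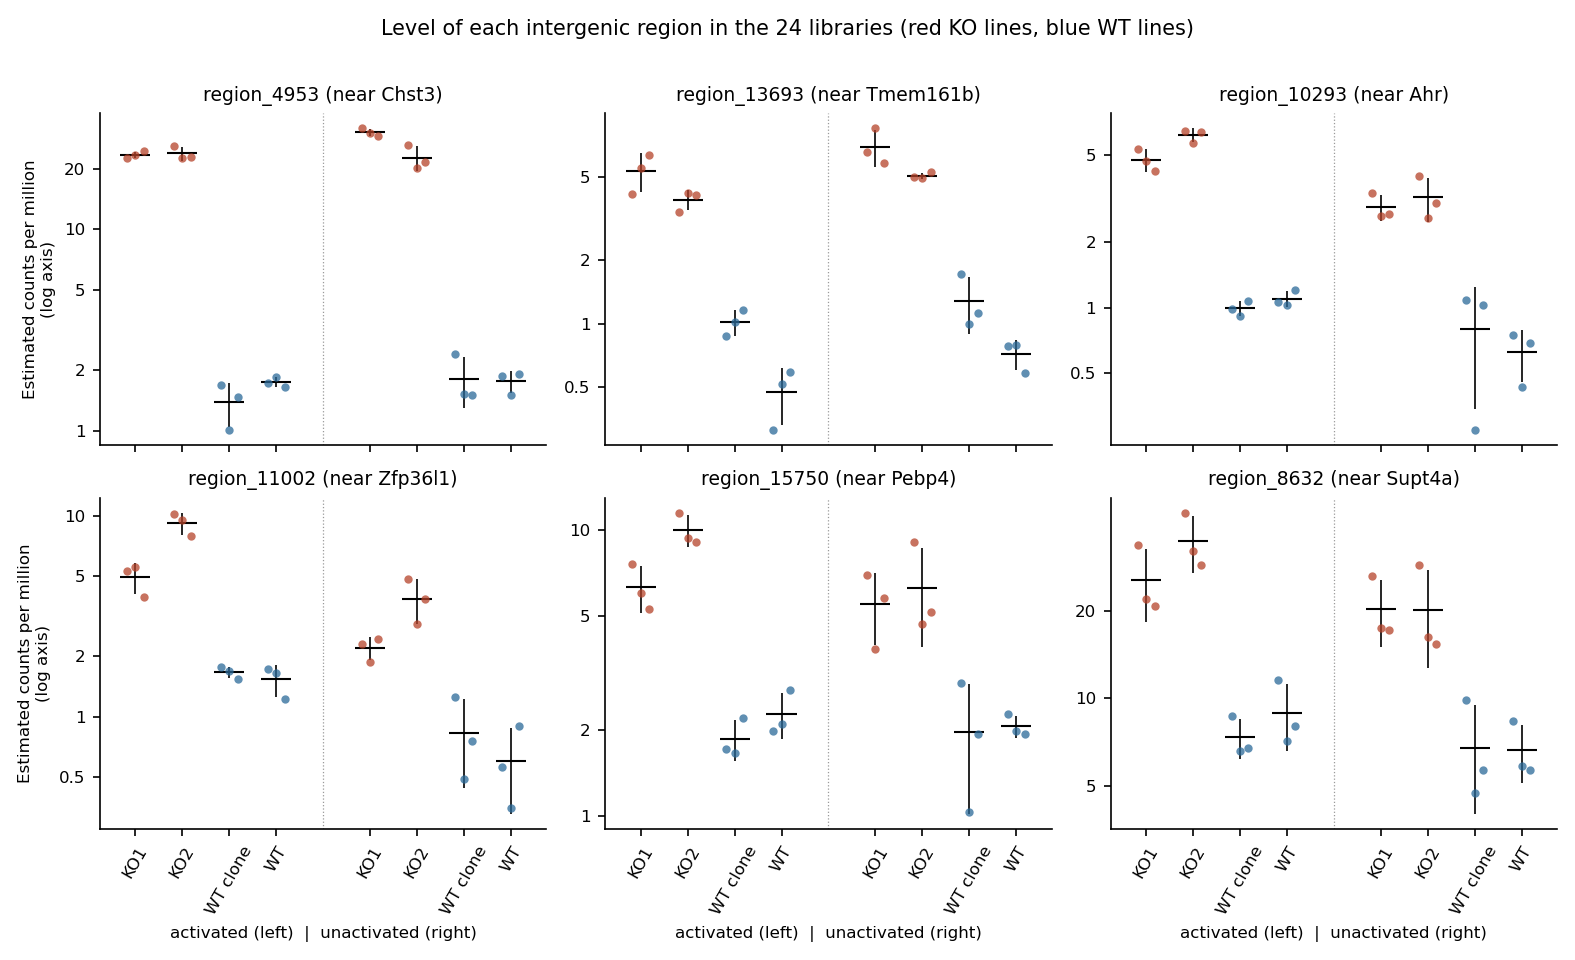
Level of each of the 6 regions in the 24 libraries, in CPM on a log axis. Points are libraries, horizontal bars are means of 3 libraries and vertical bars are SD, with KO1 and KO2 in red, the WT clone and parental WT in blue, activated cells left and unactivated cells right. Every red point lies above every blue point of the same state in each panel.

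Taken per length, as TPM, the order of the regions was another one. Region_13693 and region_4953 led in both states, at 3.1 ± 0.848 and 3.09 ± 0.247 TPM in activated KO libraries (0.466 ± 0.203 and 0.192 ± 0.041 TPM in activated WT libraries) and at 4.25 ± 1.2 and 3.65 ± 0.712 TPM in unactivated KO libraries (0.69 ± 0.25 and 0.244 ± 0.0514 TPM in unactivated WT libraries). These neighbours in the order did not differ beyond their spread. Region_8632 followed at 2.53 ± 0.653 TPM in activated KO libraries and 0.635 ± 0.133 TPM in activated WT libraries, and at 1.78 ± 0.42 TPM in unactivated KO libraries and 0.583 ± 0.153 TPM in unactivated WT libraries. Region_11002 was lowest, at 0.655 ± 0.234 TPM in activated KO libraries and 0.138 ± 0.015 TPM in activated WT libraries. Summed over the 6 regions, activated KO libraries held 79 ± 13 CPM and activated WT libraries 15.1 ± 1.85 CPM, and unactivated KO libraries held 64.6 ± 11.1 CPM and unactivated WT libraries 12.9 ± 3.58 CPM.

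The KO over WT log2 changes of the fitted model were 3.88, 2.65, 2.33, 2.03, 1.91 and 1.84 in activated cells for region_4953, region_13693, region_10293, region_11002, region_15750 and region_8632. In unactivated cells they were 3.86, 2.59, 2.08, 2.01, 1.53 and 1.58 in the same order. Over all 2697 regions outside genes the median change was 0.12 in activated and 0.01 in unactivated cells. By size of the change the 6 regions ranked between places 11 and 67 in activated cells and between places 5 and 83 in unactivated cells. They are therefore not the 6 largest changes, and in activated cells up to 8 other regions outside genes exceeded a given one in both the change and the KO level, and in unactivated cells up to 13. The change was larger in activated cells by 0.39 for region_15750, 0.27 for region_8632 and 0.25 for region_10293 on the log2 scale, and by 0.07 or less for the other 3, a difference that was not tested.

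The levels of the 6 regions were correlated over the 24 libraries. The 15 pairs had Pearson correlations of log2 CPM of 0.68 to 0.96 (median 0.9), in which the shared KO and WT difference is included. After each group's mean was taken away, the correlations were −0.13 to 0.81 (median 0.56), the highest between region_10293 and region_15750 and the lowest for region_13693 with region_11002 and with region_8632. All 6 regions were read in the same libraries, whose shared differences beyond depth enter these values, so they are a description over n = 24 libraries. Replicate 1 was the highest library in all 4 lines for region_10293 and region_15750 in unactivated cells, as for region_8632, while for region_13693 in activated cells it was the highest in 0 of 4 lines.

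Activation of the cells was a comparison that the choice of regions had not used. In WT lines, 1 of 6 regions rose and 1 fell, where 11.4% of the 2697 regions outside genes were called higher and 5.15% lower. In KO lines, 2 rose and 1 fell, where 16% were called higher and 3.74% lower. The calls are edgeR quasi-likelihood tests over 61074 targets at a Benjamini-Hochberg adjusted p under 0.05. Over all regions outside genes the median log2 change with activation was 0.29 in KO and 0.2 in WT lines, and over the 6 regions it was 0.38 in KO and 0.05 in WT lines.

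Region_11002 rose on activation in KO lines by 1.10 ± 0.22 on the log2 scale (adjusted p 0.00121) and in WT lines by 1.08 ± 0.23 (adjusted p 0.00185). In KO libraries that is 7.08 ± 2.51 CPM activated and 3.04 ± 1.13 CPM unactivated, and in WT libraries 1.6 ± 0.2 CPM activated and 0.719 ± 0.329 CPM unactivated. Activated and unactivated WT libraries barely overlapped, with 1.22 CPM in the lowest activated and 1.26 CPM in the highest unactivated library. The call held in both genotypes without any 1 library and was lost when counts were summed per line, which leaves 2 samples a group (adjusted p 0.174 in KO and 0.201 in WT lines).

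Region_10293 rose in KO lines by 0.72 ± 0.23 (adjusted p 0.0296), to 5.47 ± 0.908 CPM activated against 3.05 ± 0.558 CPM unactivated, and every activated KO library was above every unactivated one. In WT lines its change was 0.47 ± 0.23 (adjusted p 0.18), at 1.05 ± 0.0981 CPM activated and 0.709 ± 0.317 CPM unactivated. The KO call was lost without any 1 of 8 of the 12 KO libraries, with adjusted p 0.0558 to 0.0822; it held without KO1 activated replicate 3, KO1 unactivated replicate 1, KO2 activated replicate 2 or KO2 unactivated replicate 1. It was also lost with no low-count filter (0.0941), when counts were summed per line (0.123) and without the 8 replicate 1 libraries (0.80, adjusted p 0.168).

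Region_13693 went the other way. It fell on activation in KO lines by 0.49 on the log2 scale (SE 0.17, adjusted p 0.0426), to 4.6 ± 1.1 CPM activated against 5.99 ± 1.36 CPM unactivated, and in WT lines by 0.56 (SE 0.17, adjusted p 0.0277), to 0.747 ± 0.325 CPM activated against 1 ± 0.398 CPM unactivated. The activated and unactivated libraries overlapped in both genotypes. The KO call was lost without any 1 library other than KO1 activated replicate 3 or KO1 unactivated replicate 3 (adjusted p 0.0587 to 0.113). The WT call was lost without WT activated replicate 1, WT unactivated replicate 1 or 2, or WT clone activated or unactivated replicate 1 (adjusted p 0.0628 to 0.0877). Without all 8 replicate 1 libraries the change was −0.41 in KO lines (adjusted p 0.216) and −0.24 in WT lines (adjusted p 0.496), and both calls were also lost with no low-count filter (0.0919 in KO and 0.0768 in WT lines).

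The other 3 regions were not called in either genotype. Region_4953, the most abundant of them in unactivated KO libraries, had an activation change of −0.26 ± 0.11 in KO lines (adjusted p 0.125) and −0.29 ± 0.12 in WT lines (adjusted p 0.108). The KO change was called by DESeq2 (adjusted p 0.000629) and with only the KO libraries in the fit (adjusted p 0.0122), and without WT clone activated replicate 1 the WT change was called (adjusted p 0.047). Region_8632 had 0.45 ± 0.22 in KO lines (adjusted p 0.174) and 0.18 ± 0.22 in WT lines (adjusted p 0.647), and without the 8 replicate 1 libraries the KO change was called (0.50, adjusted p 0.0178). It was also called with the replicate number as a block (0.46, adjusted p 0.000417). Region_15750 had 0.32 ± 0.22 in KO lines (adjusted p 0.359) and −0.07 ± 0.22 in WT lines (adjusted p 0.896).

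Between KO2 and KO1, 0 of 6 regions were called in either state by edgeR's quasi-likelihood test. In activated cells 2 had an unadjusted p under 0.05 and DESeq2 called 1, and in unactivated cells these numbers were also 2 and 1. Few of the 2697 regions outside genes were called between the KO lines: 0.0742% higher and 0.185% lower in activated cells, and 0.111% higher and 0.185% lower in unactivated cells. The largest differences were those of region_11002, higher in KO2 by 0.91 ± 0.31 activated (adjusted p 0.463; DESeq2 0.0398) and 0.83 ± 0.31 unactivated (adjusted p 0.683). Region_4953 was at −0.41 ± 0.16 unactivated (adjusted p 0.743; DESeq2 0.0112) and 0.05 ± 0.16 activated (adjusted p 1). Between the WT clone and parental WT, 0 of 6 were called in either state, with 1 at an unadjusted p under 0.05 in each state and 1 called by DESeq2 in activated cells. Over the 2697 regions outside genes 0.0371% were called higher in the WT clone and 0.148% lower in activated cells, and 0.0371% higher and 0.111% lower in unactivated cells. The region called by DESeq2 was region_13693, at 1.12 ± 0.25 activated (adjusted p 0.0542; DESeq2 0.017), with 0.84 ± 0.25 unactivated (adjusted p 0.211). It had 1.02 ± 0.143 CPM in the activated WT clone and 0.474 ± 0.144 CPM in activated parental WT (SD, n = 3), without overlap.

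**Figure D2:**
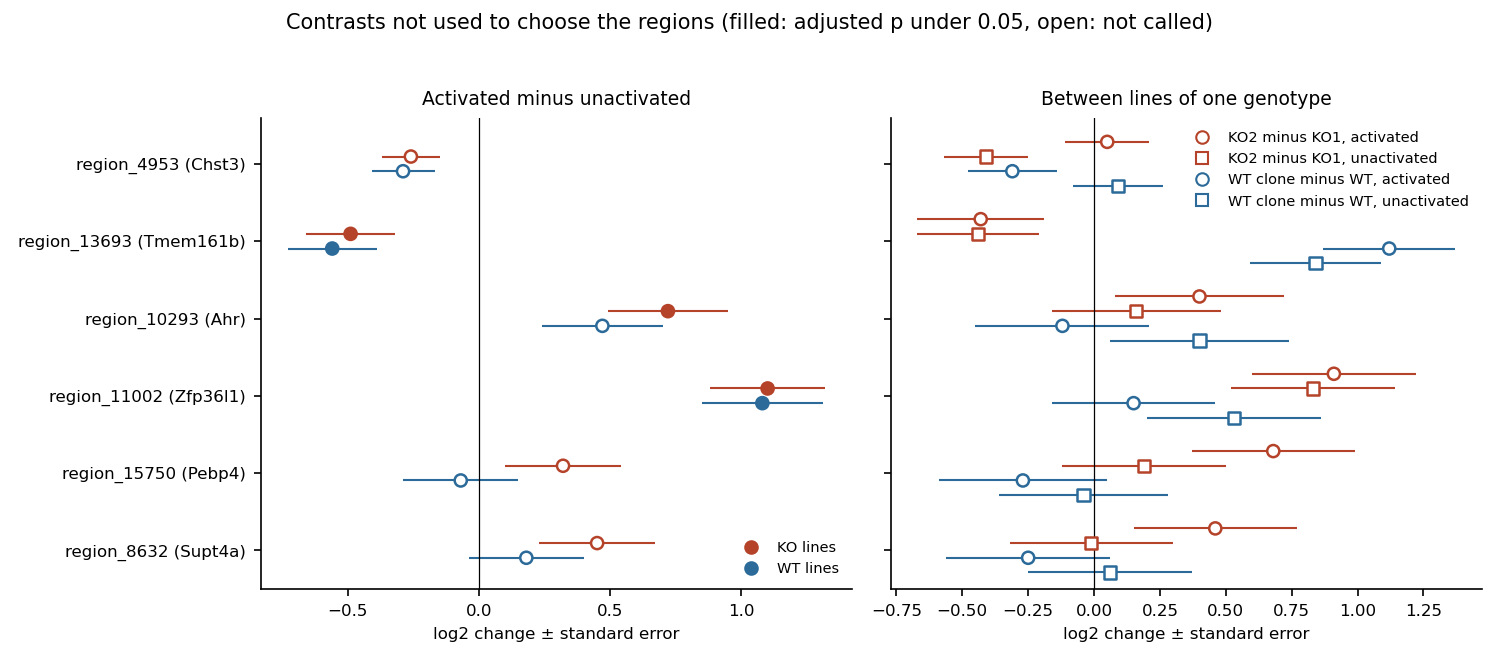
Log2 change ± standard error of each region in comparisons that did not serve to choose it: activated minus unactivated in KO lines (red) above WT lines (blue), and KO2 minus KO1 above WT clone minus parental WT. Filled points have an adjusted p under 0.05. Region_11002 lies near 1.1 in both genotypes, region_13693 lies below 0 in both, and no difference between lines of a genotype is filled.

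RNA around the regions was measured next. Within 50 kb of their edges lie 30 other numbered regions, of which 19 passed the low-count filter. In activated cells 10 of the 19 rose in KO lines, where 5.66% of all 11264 regions in the fit were called higher. In unactivated cells 7 of the 19 rose, where 3.75% were called higher. The filter keeps a region that is high enough in KO libraries alone. Of the called ones, region_10291, region_10292, region_10999, region_15745 and region_15746 entered that way. Their highest WT libraries in either state held 0.161, 0.0644, 0.208, 0.168 and 0.229 CPM, in that order. Region_10998 also entered through its KO libraries, at 0.578 to 1.49 CPM in activated cells, since too few of its WT libraries were high enough. Its WT libraries held 0.273 ± 0.093 CPM activated and 0.184 ± 0.126 CPM unactivated. These counts are therefore a description, and nothing is read from their distance to the shares. By edgeR's quasi-likelihood test 0 of 19 were called lower in either state, where 1.35% were called lower in activated and 2.64% in unactivated cells, and 0 of the lower ones had an unadjusted p under 0.05. The median log2 change of the 19 was 1.48 activated and 1.0 unactivated. All the called regions lay on the side of lower coordinates, where 12 regions around 5 of the loci were measured, and 0 of 7 on the other side, around 4 loci, were called in either state. Of the called regions, 5 in activated and 4 in unactivated cells lay at region_15750 alone. On the side of higher coordinates, the summed regions inside Gm36660 (both states) and inside Chst3 (activated cells) were called higher, as given below. The difference between the sides was not tested, and region_8632 had no other region within 50 kb.

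At region_4953, the neighbour region_4952, 2.5 kb away and holding the Gm51802 start whose promoter is printed above, had 13.2 ± 2.16 CPM in activated KO and 3.69 ± 0.608 CPM in activated WT libraries (log2 change 1.79 ± 0.15, adjusted p 2.44e-07). Unactivated it had 13.7 ± 2.56 CPM in KO and 4.18 ± 0.946 CPM in WT libraries (1.69 ± 0.15, adjusted p 4.03e-07). The groups did not overlap in either state. Region_4952 thus had more RNA than region_4953 in WT libraries and less in KO libraries, in CPM. On the other side, 3 regions inside Chst3 were not called: region_4954, region_4955 and region_4956 changed by 0.95 ± 0.45, −0.07 ± 0.31 and 0.68 ± 0.21 in activated cells (adjusted p 0.294, 0.984 and 0.0634). In unactivated cells they changed by 0.10 ± 0.44, −0.57 ± 0.31 and −0.19 ± 0.21 (adjusted p 0.963, 0.363 and 0.729). Region_4956 was called in activated cells by DESeq2 (adjusted p 0.0182) and without WT clone activated replicate 1 (0.89, adjusted p 0.00837).

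At region_10293, region_10292 lies 2.1 kb away, also outside genes, and had 0.502 ± 0.0683 CPM in activated KO and 0.031 ± 0.0204 CPM in activated WT libraries (log2 change 3.81 ± 0.59, adjusted p 0.00029). The WT value rests on 6 counts over the 6 WT libraries, so the size of that change is uncertain. Unactivated it was also called, with 38 counts over the 6 KO libraries and 2 counts over the 6 WT libraries (adjusted p 0.00115), which is too few for a fold. Region_10291, which holds the 9130015A21Rik start printed above, had 0.674 ± 0.188 CPM in activated KO and 0.0992 ± 0.0567 CPM in activated WT libraries (2.69 ± 0.51, adjusted p 0.00195). Unactivated it had 0.267 ± 0.0878 CPM in KO and 0.0782 ± 0.0677 CPM in WT libraries, and its change was 1.71 ± 0.53 (adjusted p 0.0585), and it was called without WT unactivated replicate 1 (2.60, adjusted p 0.00668) or WT clone unactivated replicate 1 (1.98, adjusted p 0.0497) and by DESeq2 (adjusted p 0.0131). Region_10294, 8.7 kb to the other side, was at 0.28 ± 0.37 activated (adjusted p 0.844) and −0.02 ± 0.41 unactivated (adjusted p 1).

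At region_15750, 5 of 7 measured neighbours rose in activated and 4 of 7 in unactivated KO cells, and all 5 lie inside or across the noncoding gene Gm33524. The nearest, region_15749 (2.8 kb), had 6.79 ± 1.92 CPM in activated KO and 0.726 ± 0.275 CPM in activated WT libraries, which was also the highest change (log2 3.21 ± 0.24, adjusted p 7.07e-08). Unactivated it had 4.23 ± 1.2 CPM in KO and 0.561 ± 0.205 CPM in WT libraries (2.89 ± 0.24, adjusted p 1.84e-07). The lowest changes were those of region_15754 inside Bin3, at 0.19 ± 0.31 activated (adjusted p 0.888) and −0.11 ± 0.32 unactivated (adjusted p 0.929). Region_15748, in which Gm33524 and Pebp4 overlap and which is named after its values were seen, was the most abundant, with 20.1 ± 4 CPM in activated KO and 4.32 ± 1.37 CPM in activated WT libraries, and 8.32 ± 2.5 CPM in unactivated KO and 2.84 ± 0.844 CPM in unactivated WT libraries.

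At region_11002, 2 of 4 measured neighbours rose in activated cells. Region_10999 (24.5 kb) changed by 1.48 ± 0.40 activated (adjusted p 0.0289) and 2.03 ± 0.46 unactivated (adjusted p 0.00804), and region_10998 (27.2 kb) by 1.64 ± 0.46 activated (adjusted p 0.0352) and 0.19 ± 0.49 unactivated (adjusted p 0.918). The activated call of region_10999 was lost without KO2 replicate 1, KO1 replicate 3, WT clone replicate 3 or WT replicate 1 or 2 (adjusted p 0.0523 to 0.0879), and that of region_10998 without any 1 library other than KO2 replicate 3, KO1 replicate 3 or WT replicate 2 (0.0504 to 0.1). Without the 8 replicate 1 libraries the unactivated call of region_10999 was lost too (1.75, adjusted p 0.26). Both are low, at 0.496 ± 0.204 and 0.882 ± 0.321 CPM in activated KO libraries and 0.164 ± 0.0443 and 0.273 ± 0.093 CPM in activated WT libraries. Region_11000 was at 0.89 ± 0.36 activated (adjusted p 0.194) and 1.00 ± 0.38 unactivated (adjusted p 0.135), and region_11004 at 0.71 ± 0.35 (adjusted p 0.327) and 0.68 ± 0.38 (adjusted p 0.37). At region_13693 the only neighbour, region_13692 at the start of Gm41011, was at 0.21 ± 0.17 activated (adjusted p 0.646) and 0.08 ± 0.17 unactivated (adjusted p 0.888).

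**Figure D3:**
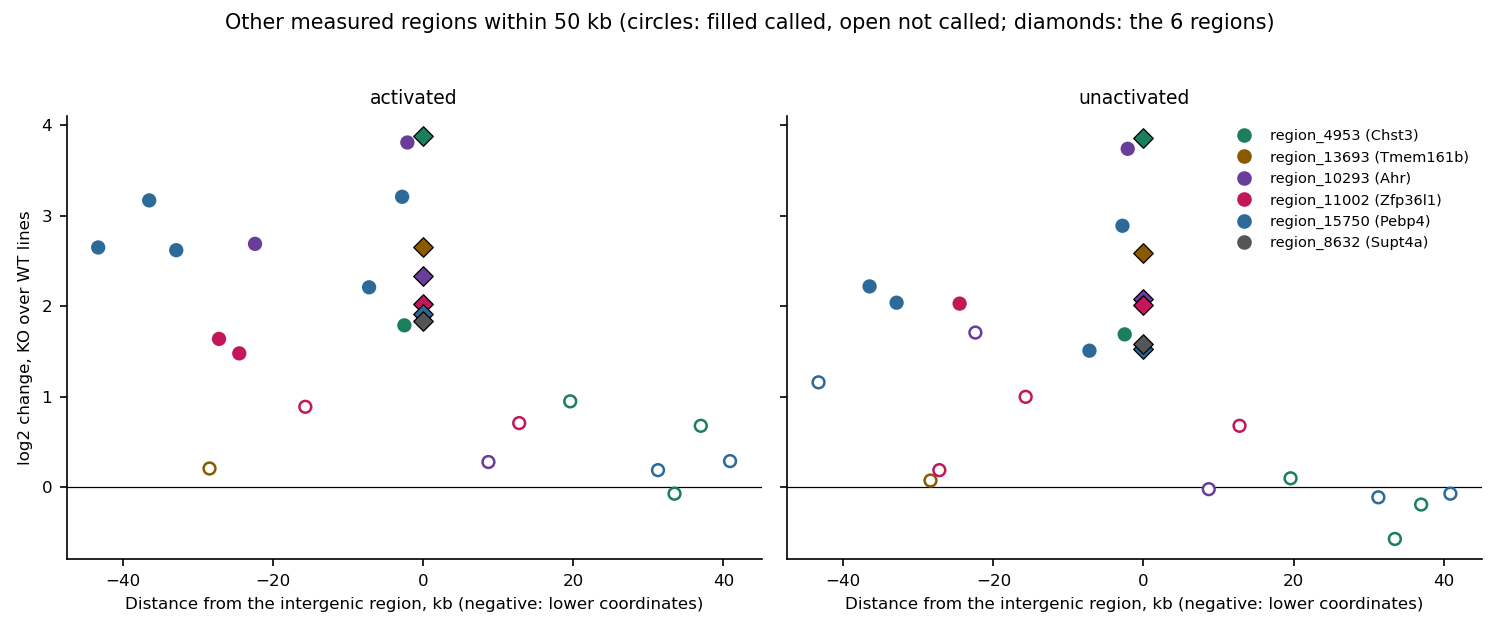
Log2 change, KO over WT lines, of the 19 other measured regions against their distance in kb from the intergenic region they neighbour, in activated cells (left) and unactivated cells (right). Colours name the locus, filled circles were called, open circles were not, and diamonds at 0 are the 6 regions. Filled circles lie only at negative distances, in both states.

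The genes around the regions were read as the sum of the numbered regions wholly inside 1 gene, which covers parts of a gene only and is not a measure of its whole mRNA. Of 21 nearest genes, 12 had such regions and 10 passed the filter. In activated cells 7 of the 10 rose in KO lines, where 5.55% of 4520 gene values were called higher, and in unactivated cells 5 rose, where 4.16% were called higher. By edgeR's quasi-likelihood test 0 were called lower, where 3.41% of gene values were in activated and 3.58% in unactivated cells, although 2 had a lower value at an unadjusted p under 0.05 in unactivated cells. Their median log2 change was 1.28 activated and 0.9 unactivated, beside −0.02 and −0.03 over all gene values. With KO1 as the sole KO line 4 were called in activated and 3 in unactivated cells. Rad51b, called in both states, was added to the genes after the data were seen. Gm33524, 9130015A21Rik and Chst3 are read over regions already among the 19 neighbours above. The count of genes is therefore not separate from the count of neighbours, and nothing is read from its distance to the share.

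The 4 noncoding neighbours that passed the filter through regions wholly inside them rose in activated KO cells. Gm41011 is not among them, since only region_13692 crosses it, and that region was not called (0.21 ± 0.17 activated, adjusted p 0.646). Gm51802 and 9130015A21Rik had at most 0.229 and 0.161 CPM in any WT library, so they passed the filter through KO libraries alone. Gm33524, through the single region_15749, changed by 3.13 ± 0.21 activated (adjusted p 7.47e-11) and 2.89 ± 0.21 unactivated (adjusted p 1.92e-09). Gm36660, beside region_11002, had 4.15 ± 0.888 CPM in activated KO and 1.25 ± 0.135 CPM in activated WT libraries (log2 change 1.59 ± 0.18, adjusted p 4.62e-07), and 1.35 ± 0.454 CPM in unactivated KO and 0.421 ± 0.147 CPM in unactivated WT libraries (1.66 ± 0.22, adjusted p 1.25e-05). Like region_11002 it also rose on activation, by 1.23 ± 0.18 in KO lines (adjusted p 5.91e-06) and by 1.30 ± 0.22 in WT lines (adjusted p 8.03e-05). 9130015A21Rik, through the single region_10291, rose by 2.61 ± 0.39 activated (adjusted p 4.13e-05) and by 1.70 ± 0.46 unactivated (adjusted p 0.0223), the unactivated call being lost without KO1 or KO2 unactivated replicate 1, WT unactivated replicate 2 or 3, or WT clone unactivated replicate 2 (adjusted p 0.052 to 0.0664). It was also lost with KO1 alone (1.63, adjusted p 0.105) and KO2 alone (1.76, adjusted p 0.0592). Against parental WT alone (2.01, adjusted p 0.0687) and against the WT clone alone (1.38, adjusted p 0.17) it was lost too. The same counts, fitted among all targets as region_10291, were not called in unactivated cells (1.71 ± 0.53, adjusted p 0.0585). Gm51802, in the regions wholly inside it, rose by 2.20 ± 0.53 activated (adjusted p 0.00695) (0.325 ± 0.168 CPM in KO libraries, 0.0677 ± 0.0672 CPM in WT libraries), and was at 1.37 ± 0.49 unactivated (adjusted p 0.0925). The activated call was lost with KO1 alone (1.73, adjusted p 0.16) and against parental WT alone (1.41, adjusted p 0.211), and with region_4952 counted in the unactivated change was called (1.68, adjusted p 2.82e-08).

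Chst3, the protein-coding gene beside region_4953 and a sulfotransferase that modifies chondroitin chains, had 5.27 ± 1.08 CPM in activated KO and 3.39 ± 1.09 CPM in activated WT libraries (log2 change 0.53 ± 0.16, adjusted p 0.0403), and 3.71 ± 0.841 CPM in unactivated KO and 4.17 ± 1.28 CPM in unactivated WT libraries (−0.18 ± 0.16, adjusted p 0.603). The activated call was lost without any 1 of 8 libraries (KO1 replicate 1 or 2, KO2 replicate 1 or 3, WT replicate 2 or 3, WT clone replicate 2 or 3; adjusted p 0.0608 to 0.127) and against parental WT alone (0.23, adjusted p 0.679). It was also lost with KO1 alone (0.36, adjusted p 0.457) and with counts summed per line (0.52, adjusted p 0.242). On activation Chst3 changed by −0.61 ± 0.17 in WT lines (adjusted p 0.00764) and by 0.10 ± 0.16 in KO lines (adjusted p 0.71). Region_4953 beside it stood about as far apart in both states. Ahr, a ligand-activated transcription factor, rose by 1.15 ± 0.29 in unactivated cells (adjusted p 0.0124) (0.774 ± 0.242 CPM in KO libraries, 0.351 ± 0.2 CPM in WT libraries). In activated cells it was at 0.25 ± 0.23 (adjusted p 0.629), with 1.64 ± 0.491 CPM in KO and 1.27 ± 0.429 CPM in WT libraries. Without the 8 replicate 1 libraries the unactivated change was 1.12 (adjusted p 0.132), and with KO1 alone it was 1.00 (adjusted p 0.119). On activation Ahr rose by 0.66 ± 0.24 in KO lines (adjusted p 0.0434) and by 1.57 ± 0.28 in WT lines (adjusted p 0.000109), and a difference between the genotypes was not tested.

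Rad51b, a gene of homologous recombination, is read over 30 regions and is the best covered of these genes. It had 34.9 ± 2.49 CPM in activated KO and 16.3 ± 0.943 CPM in activated WT libraries (log2 change 0.97 ± 0.12, adjusted p 1.47e-06), and 13.3 ± 2.04 CPM in unactivated KO and 8.48 ± 1.95 CPM in unactivated WT libraries (0.64 ± 0.12, adjusted p 0.000686). It rose on activation by 0.99 ± 0.12 in KO lines (adjusted p 3.11e-07) and by 0.65 ± 0.12 in WT lines (adjusted p 0.000122). Rad51b was added as the protein-coding gene on the far side after the data were seen.

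Zfp36l1, whose protein promotes decay of AU-rich mRNAs, is read through a single region, and its values scattered widely. In activated cells it had 1.38 to 2.85 CPM in KO libraries and 0 to 1.51 CPM in WT libraries (log2 change 2.47 ± 0.76, adjusted p 0.0387), with parental WT at 0.27, 0 and 1.89e-06 CPM. In unactivated cells it had 0 to 1.81 CPM in KO and 0.577 to 8.12 CPM in WT libraries (−1.81 ± 0.65, adjusted p 0.0925). Against the WT clone alone the activated change was 0.68 (adjusted p 0.72), DESeq2 did not call it (adjusted p 0.163), and 7 of 12 leave-one-out fits lost it (adjusted p 0.0638 to 0.105): those without KO1 replicate 2, KO2 replicate 2 or 3, WT replicate 2 or 3, or WT clone replicate 1 or 2. Summing counts per line also lost the activated call (1.56, adjusted p 0.258), as did KO2 alone (adjusted p 0.0933), KO1 alone (0.106) and leaving out the replicate 1 libraries (0.0823). In unactivated cells the fits without KO1 replicate 3, KO2 replicate 2 or WT clone replicate 3 called it lower (−2.53, −4.37 and −2.03; adjusted p 0.049, 0.00193 and 0.0489). It was also called lower with no low-count filter (−1.80, adjusted p 0.000116) and against the WT clone alone (−2.58, adjusted p 0.0256). On activation Zfp36l1 changed by −2.84 ± 0.75 in WT lines (adjusted p 0.0067) and by 1.43 ± 0.64 in KO lines (adjusted p 0.115).

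Pebp4, a member of the phosphatidylethanolamine-binding family, was not called. Its 4 own regions held 0.139 ± 0.0936 CPM in activated KO and 0.279 ± 0.119 CPM in activated WT libraries (log2 change −1.13 ± 0.60, adjusted p 0.312), and 0.0905 ± 0.0538 CPM in unactivated KO and 0.38 ± 0.424 CPM in unactivated WT libraries (−1.98 ± 0.63, adjusted p 0.0531). The unactivated change was called lower without WT replicate 1 or 2 or WT clone replicate 1 or 3 (adjusted p 0.0181 to 0.0427), by DESeq2 (0.0412), with counts summed per line (−1.96, adjusted p 0.0123) and with no low-count filter (−1.98, adjusted p 0.00252). Unactivated parental WT replicate 3 (0.982 CPM) and WT clone replicate 2 (0.863 CPM) were the high libraries. The unactivated medians were 0.157 CPM in WT and 0.105 CPM in KO libraries, and the ranges overlapped (0.0294 to 0.982 and 0 to 0.152 CPM). No KO library of either state held more than 0.27 CPM, so Pebp4 passed the filter through WT libraries alone. With the regions that it shares with Gm33524 counted in, the direction turned, to 1.82 activated (adjusted p 2.77e-09) and 1.03 unactivated (adjusted p 2.74e-05). Tmem161b was at 0.10 ± 0.30 activated (adjusted p 0.911) and −0.07 ± 0.30 unactivated (adjusted p 0.939), at 0.319 ± 0.133 CPM in activated KO and 0.284 ± 0.154 CPM in activated WT libraries. Egr3, an early growth response factor next to region_15750, held 2 counts over the 6 KO libraries and 1 count over the 6 WT libraries of each state and did not pass the filter. Supt4a, a subunit of the elongation factor DSIF, holds no numbered region and has no value here.

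**Figure D4:**
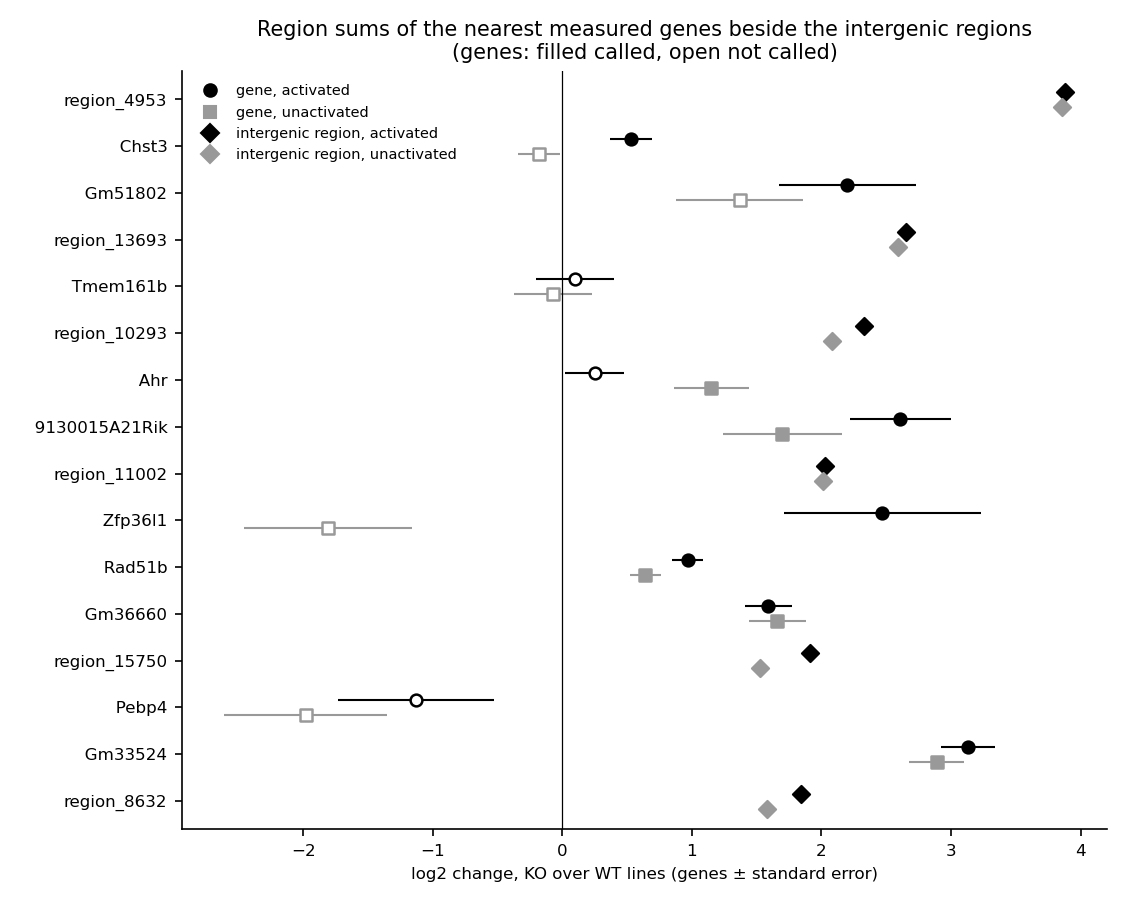
Log2 change, KO over WT lines, of the summed regions of the 10 measured nearest genes (± standard error), each listed under its intergenic region (diamonds, chosen on this difference and not tested). Black is activated and grey unactivated, and filled gene symbols were called. Gm33524 and Gm51802, 9130015A21Rik and Gm36660 lie to the right with their regions, Tmem161b lies at 0, and Zfp36l1 lies on opposite sides of 0 in the 2 states.

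Among 373 gene values with at least 5 CPM in a group, the 3 with the highest Pearson correlation of log2 CPM with each region over the 24 libraries were examined. Glb1, the lysosomal beta-galactosidase, came first for region_4953 (r = 0.931) and for region_13693 (r = 0.878). Like both of those regions it had a higher KO mean in unactivated than in activated cells, with 11 ± 3.92 CPM in activated KO and 3.67 ± 0.429 CPM in activated WT libraries, and 14.2 ± 2.37 CPM in unactivated KO and 3.54 ± 0.25 CPM in unactivated WT libraries. Ms4a4a, a four-span membrane protein of the MS4A family, and Ubxn11, a UBX-domain protein, were among the 3 for region_10293, region_11002 and region_8632 (r 0.877 to 0.905). Nfatc1, a calcium-regulated transcription factor, and Tbc1d5, which acts on the endosomal GTPase RAB7, were among the 3 for region_15750 (0.874 and 0.864), and 1 of them each for region_4953 (Nfatc1, 0.877) and region_13693 (Tbc1d5, 0.822). The likeness includes the KO and WT difference that these genes share with the regions, and shared function or control was not examined.

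Genes that make, restrain or clear enhancer RNA were read in the same way. Of 16 known partners of ZMYND8 in silencing 4 were measured, of 25 genes of enhancer RNA elongation, release and decay 8 were measured, and none of these 12 was called in either state by edgeR's quasi-likelihood test or had an unadjusted p under 0.05. For comparison, in activated cells 5.55% of the 4520 gene values rose and 3.41% fell by that test, and in unactivated cells 4.16% rose and 3.58% fell. The median log2 changes of the partners and of the elongation, release and decay genes were −0.08 and −0.21 activated and −0.01 and 0.15 unactivated. Of 12 measured enhancer coactivators, 1 fell in unactivated cells, where 3.58% of gene values were called lower and 2 of the 12 had an unadjusted p under 0.05. In activated cells 0 were called by edgeR's test and 0 had an unadjusted p under 0.05. The one that fell was Ncoa3, a nuclear receptor coactivator, with 8.76 ± 2.21 CPM in KO libraries and 16.2 ± 8.15 CPM in WT libraries (−0.86 ± 0.23, adjusted p 0.0184). In the aryl hydrocarbon receptor pathway Ahr alone of 3 measured genes was called, higher and in unactivated cells only. Its partner Arnt was at 0.13 ± 0.18 activated (adjusted p 0.777) and 0.29 ± 0.20 unactivated (adjusted p 0.462). Of 4 measured genes of AU-rich mRNA decay, Zfp36l1 was the one called, higher and in activated cells only (2.47 ± 0.76, adjusted p 0.0387). In unactivated cells it was at −1.81 ± 0.65 (adjusted p 0.0925), and the activated call was lost in several alternatives given above.

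Of 20 measured B cell transcription factors that bind enhancers, 7 rose and 0 fell in activated KO cells, where 5.55% of gene values were called higher and 3.41% lower, and 5 rose and 1 fell in unactivated KO cells, where 4.16% were called higher and 3.58% lower. The median log2 change of the 20 was 0.28 activated and 0.14 unactivated. In activated cells Prdm1, the plasma cell regulator, had 0.596 ± 0.188 CPM in KO and 0.243 ± 0.123 CPM in WT libraries (1.23 ± 0.24, adjusted p 0.000905), and Tcf4, an E protein, had 21 ± 3.36 CPM in KO and 11.2 ± 4 CPM in WT libraries (0.80 ± 0.17, adjusted p 0.00198). Irf4 had 3.85 ± 0.62 CPM in activated KO and 2.02 ± 0.407 CPM in activated WT libraries (0.81 ± 0.18, adjusted p 0.00421). In unactivated cells Bach2 had 8.33 ± 1.34 CPM in KO and 4.36 ± 1.45 CPM in WT libraries (0.95 ± 0.12, adjusted p 5.23e-06), and Irf8, an interferon regulatory factor, fell to 0.135 ± 0.0844 CPM in KO, against 0.81 ± 0.448 CPM in WT libraries (−2.59 ± 0.43, adjusted p 0.000241).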

How the data were processed

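RNA was measured in 24 CH12 libraries, 3 for each of 4 lines in 2 states. The deposited files hold estimated counts and TPM for 171152 targets per library, transcripts and 49745 numbered genomic regions, made by the authors with kallisto 0.43.0 on GRCm38.p5, per the submitters' processing notes, which also name DESeq2. The kit was stranded and reads were single-end, per the labels' protocols, and the strand setting of kallisto is not given in the sources used here. How the authors drew the regions is not given there either. The labels say that the repeats were run in the same flow cells.

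Estimated counts were rounded and fitted with edgeR 4.0.16 (quasi-likelihood, TMM, filterByExpr, all 24 libraries in 1 model of 8 groups), over the 61074 targets that passed the filter, 11264 of them regions and 2697 regions outside genes. All 6 regions passed. A gene value is the sum of the regions wholly inside that gene alone. These were fitted the same way (4520 of 10749 passed), since no table tying transcripts to genes was used. P-values were Benjamini-Hochberg adjusted over each whole table, with a threshold of 0.05. Both fits were tested on simulated data. CPM are estimated counts over the library total, and correlations used log2 of CPM plus 0.1. DESeq2 1.42.0 was an alternative.

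The 6 regions and the gene lists were chosen with earlier results of these data known. Named genes were the nearest genes, the other regions within 50 kb and up to 4 genes a list with the smallest p. The 3 gene values most correlated with each region, Gm and Rik names left out, were named too. Nearest protein-coding genes, gene values from overlapping regions and fits without the replicate 1 libraries were added after seeing the data. A motif search of the regions was not run because no genome was used. Motifs were sought in RefSeq promoters. Replicates of a group differed beyond counting noise in all 24 pairs (chi-square over degrees of freedom 17.46 to 142.3). A gene value among those most correlated with the regions is not reported here.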

Additional observations from a re-analysis of the deposited data

Results flagged for a closer look

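Of 64 groups of 6 libraries examined for the 6 regions and their nearest genes, 5 held 1 library apart from the other 5, where chance alone sets apart about 1 group in 20. None of the 5 belongs to the 6 regions themselves. The threshold is Dixon's 95% critical value of 0.625 for the gap to the nearest library over the group's range. For Zfp36l1 in unactivated WT cells, WT clone replicate 2 held 8.12 CPM, and the others held 0.577 to 1.75 CPM. For Ahr in activated WT cells, parental WT replicate 2 held 2.13 CPM, and the others held 0.972 to 1.24 CPM. For Rad51b in unactivated KO cells, KO2 replicate 1 held 17.2 CPM, and the others held 11.7 to 13.4 CPM. For Gm36660 in activated KO cells, KO2 replicate 1 held 5.81 CPM, and the others held 3.34 to 4.23 CPM. For 9130015A21Rik in activated KO cells, KO1 replicate 2 held 0.32 CPM, and the others held 0.631 to 0.817 CPM.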

How the results depend on the processing

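All 6 regions stayed higher in KO lines under every alternative tried, and their median log2 change ranged from 2.17 to 2.36 activated and from 1.95 to 2.29 unactivated when any 1 library was left out. With KO1 as the sole KO line the activated median was 1.92. The counts of calls moved more. With activation, 2 regions were called in WT lines, but 0 with counts summed per line, 1 with no low-count filter, 1 with only the WT libraries, 1 without the replicate 1 libraries, and 1 to 2 with any 1 library left out. In KO lines 3 were called, but 0 with counts summed per line, 1 with no filter, 2 without the replicate 1 libraries, 4 with DESeq2, 4 with only the KO libraries and 1 to 3 with any 1 library left out. DESeq2 called 1 region between KO2 and KO1 in each state, and 1 between the WT clone and parental WT in activated cells. Of nearest genes, 7 were called activated and 5 unactivated, but 4 and 3 with KO1 alone, and 3 unactivated against parental WT alone. Of regions within 50 kb, 10 were called activated and 7 unactivated, but 6 and 3 with counts summed per line (2 samples a group) and 4 unactivated without the replicate 1 libraries. The causes were not tested.

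The labels' replicate numbers did not pair the libraries throughout: deviations of same-numbered libraries correlated at −0.05 to 0.34, and 16 of 24 libraries correlated best with their own number. In 1 of 4 comparisons, activation in WT lines, all 3 correlations were above 0.1 (0.11 to 0.32), and the block changed no region's call there. With replicate as a block, 2 regions were called with activation in WT lines, 4 in KO lines (region_8632 was the one added), 0 between lines in each state, 7 nearest genes activated and 5 unactivated, and 10 neighbours activated and 8 unactivated.

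Values near 0 turned sign. With any 1 library left out, region_15750 ranged from −0.22 to 0.12 for activation in WT lines (0.25 without the replicate 1 libraries). Between unactivated KO2 and KO1, region_10293 ranged from −0.03 to 0.28, region_15750 from −0.15 to 0.4 and region_8632 from −0.34 to 0.24. Between the unactivated WT clone and parental WT, region_4953 ranged from −0.15 to 0.2, region_15750 from −0.41 to 0.27 and region_8632 from −0.29 to 0.28, and without the replicate 1 libraries region_4953 was at −0.09 and region_8632 at −0.08. In activated cells region_4953 ranged from −0.02 to 0.08 between KO2 and KO1 (−0.04 without replicate 1), and region_11002 from −0.0 to 0.24 between the WT clone and parental WT.

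For KO over WT, Tmem161b ranged from −0.08 to 0.28 activated (−0.34 against parental WT) and from −0.18 to 0.1 unactivated (0.37 against the WT clone). Unactivated Chst3 was at 0.01 with KO2 alone, and Pebp4 from overlapping regions was at 1.82 activated and 1.03 unactivated. Of unactivated neighbours, region_10294 ranged from −0.23 to 0.17, region_10998 from −0.1 to 0.61, region_13692 from −0.02 to 0.19, region_15754 from −0.22 to 0.13, region_15755 from −0.25 to 0.31 and region_4954 from −0.16 to 0.54. Without the replicate 1 libraries region_10998 was at −0.0, region_15754 at 0.03, region_15755 at 0.12 and region_4954 at −0.33. Activated region_4955 ranged from −0.24 to 0.07, and activated region_15754 was at −0.21 without replicate 1.

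Low counts limit the neighbours and gene values. Each genotype rests on 2 lines, and the region set covers parts of genes only.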
